A study of Homo sapiens with 12 samples.

Results

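CUL4A and its relatives were followed through the 12 libraries of a study of IFI6 in TE-1, a human cell line labelled as oesophageal cancer. The genes described are the cullins CUL1, CUL2, CUL3, CUL4A, CUL4B, CUL5, CUL7 and CUL9, with DDB1 and RBX1. They were chosen by name, 10 of 19771 genes in the table of protein-coding genes, together with all 13 CUL4A transcripts of 259360 in the table of annotated transcripts. CUL4A was chosen because its transcripts had been seen to differ between groups in these data, so its values are given as a description, without a test. The other 9 genes were tested.

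The study changed the level of IFI6, an interferon-inducible gene, and read the transcriptome. Cells of all 4 groups were grown in DMEM with fetal bovine serum, transfected with a vector and cultured for 48 hours before total RNA was taken for libraries that include long non-coding RNA. OE_IFI6 received a vector that overexpresses IFI6, and OE_control received the matching non-specific control vector. Cells of the third group, sh_IFI6, received an interference vector against IFI6, and cells of the last group, sh_control, received its non-specific control. Each group has 3 libraries. Every group is the same cell line carrying a transfected vector, so none is untreated. The sources used here give neither the vector backbone nor the share of cells transfected. Nothing in the labels ties the 3 libraries of a group to separate cultures. The p-values therefore measure only the spread between these libraries, which may be technical. RNA came from bulk cells, in which fewer expressing cells and less RNA per cell cannot be told apart.

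Cullins are the scaffolds of the cullin-RING ubiquitin ligases. The N-terminal end of a cullin binds an adaptor and, through it, a substrate receptor, while its C-terminal end binds a RING protein such as RBX1 that recruits the ubiquitin-loaded E2 enzyme. CUL4A and CUL4B use the adaptor DDB1 and receptors of the DCAF family, and their ligases act in DNA repair, replication licensing and the cell cycle. Attachment of the ubiquitin-like protein NEDD8 to the cullin switches the ligase on.

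Most of the text below turns on a pair of CUL4A transcripts that begin at different first exons. CUL4A-203 (ENST00000375441) was listed at 13:113208193-113265072 and CUL4A-202 (ENST00000375440) at 13:113209613-113267108. The deposited starts lie 1420 bases apart. In GENCODE release 29 (GRCh38) both transcripts lie on the plus strand, have 20 exons and share the 18 inner ones. The first exon has 415 bases in CUL4A-203 and 232 bases in CUL4A-202. The annotated reading frame of CUL4A-202 begins in its first exon and runs for 759 codons, the stop codon not counted. That of CUL4A-203 begins in the third exon and runs for 659 codons, 100 fewer. The shorter CUL4A-209 (ENST00000488558, 13:113209600-113230212), begins beside CUL4A-202 and ends after 6 exons.

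**Figure D1:**
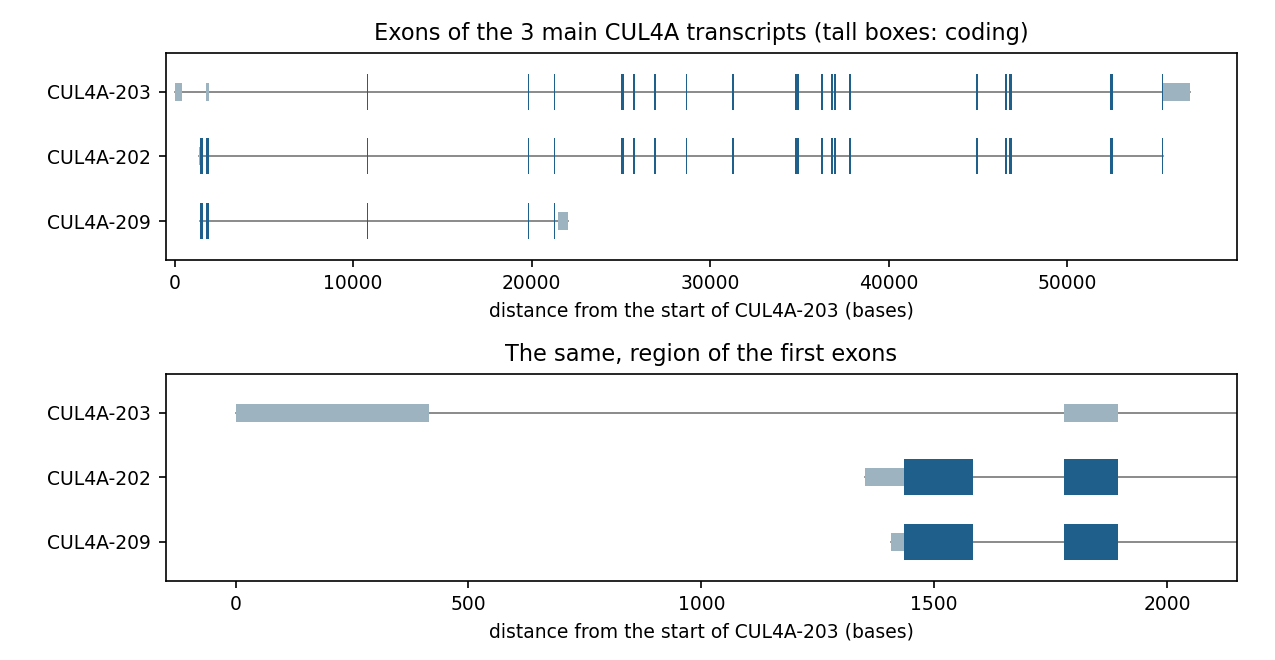
Exons of CUL4A-203, CUL4A-202 and CUL4A-209 in GENCODE release 29, by distance in bases from the start of CUL4A-203; tall dark boxes are coding and low pale boxes are not. The 2 long transcripts have 20 exons each and share the 18 inner ones, while the lower panel shows that their first exons do not overlap and that coding begins in the first exon of CUL4A-202 and CUL4A-209 but not of CUL4A-203.

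The sequences shown are a window upstream of each first exon and the coding part of the first exon of CUL4A-202, since these are what sets the transcripts apart at their 5′ end. The upstream windows come from RefSeq (GRCh38.p14), where 9 of the 10 genes had a promoter entry. Each has 86 bases on the plus strand and ends at the last base that lies in no annotated untranslated region. The end lies 139 bases short of the RefSeq start of CUL4A-203 and 69 bases short of that of CUL4A-202. Neither window therefore reaches its RefSeq start site. In GENCODE release 29, CUL4A-202 starts at 13:113209544, the base right after its window. The window before CUL4A-203 is chr13:113207968-113208053, and that before CUL4A-202 is chr13:113209458-113209543. Capitals mark matches to GGGCGG, a GC box, searched on both strands with overlaps allowed. The coding stretch, chr13:113209628-113209775, comes from GENCODE release 29 (GRCh38) and has 148 bases; its capitals mark the start codon.
bases before CUL4A-203: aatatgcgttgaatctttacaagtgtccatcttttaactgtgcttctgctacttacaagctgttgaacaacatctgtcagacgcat
bases before CUL4A-202: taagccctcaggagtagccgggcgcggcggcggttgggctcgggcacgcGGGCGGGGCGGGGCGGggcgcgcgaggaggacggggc
coding part of exon 1 of CUL4A-202: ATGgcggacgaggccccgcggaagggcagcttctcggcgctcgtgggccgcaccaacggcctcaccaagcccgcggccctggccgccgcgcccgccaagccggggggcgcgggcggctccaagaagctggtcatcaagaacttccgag

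The window before CUL4A-202 is rich in G and C, at 82.6% of its bases, and holds 3 overlapping GC boxes on the plus strand. The window before CUL4A-203 is 38.4% G and C and holds none. It lies within the bounds of the gene PCID2 (13:113177539-113208715). Of 35116 RefSeq promoters, 22.3% hold the motif in the 86 bases at the same offset as the CUL4A-202 window, and 16.3% at that of the CUL4A-203 window. A match describes the letters only.

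The libraries as a whole were alike. Summed FPKM over protein-coding genes ranged from 325877 to 357145, and the correlation of log2 levels between libraries was 0.967 to 0.978 within groups and 0.954 to 0.978 between them. IFI6 was at 309, 268 and 358 FPKM in OE_IFI6, at 27.3, 17.9 and 28.8 in OE_control, at 15.1, 13.9 and 14.7 in sh_IFI6 and at 24.9, 24.1 and 21.2 in sh_control. It rose after overexpression by 3.62 on the log2(FPKM + 1) scale (SE 0.17, limma, adjusted p = 4.7e-07). After interference the difference was -0.64 (SE 0.17) and did not pass (limma, adjusted p = 0.82). Of the epithelial and squamous markers, KRT8 and KRT18 were high, at 930 and 439 FPKM on average, and DSP was at 38.4. KRT5, EPCAM and SOX2 were listed at 0 in every library. KRT19, TP63, CDH1 and CDH3 stayed below 0.774, 0.332, 0.171 and 0.163 FPKM. Only 3 of the 10 markers on this mixed list thus reached a mean of 1 FPKM over the 12 libraries. Summed levels of 6 fibroblast markers were 5.64 to 8.31 FPKM, and those of 8 immune and endothelial markers were 1.54 to 3.11. The 3 OE_control libraries stood apart in heat shock and stress genes. A list of 10 such genes, chosen because they were known to differ in these data, summed to 2931 to 2990 FPKM there and to 868 to 1472 in the other 9 libraries.

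CUL4A in OE_control was at 47.4% of its level in OE_IFI6. The gene was at 22.8, 25.7 and 24.1 FPKM in OE_control, at 52.0, 51.8 and 49.2 in OE_IFI6, at 51.5, 51.0 and 49.2 in sh_IFI6 and at 53.6, 52.9 and 55.4 in sh_control. All 3 OE_control libraries lay below all 9 others, which spanned a narrow range; CUL4A was chosen for this, and 13.5% of tested genes were lower in every OE_control than in every OE_IFI6 library and 20.3% lower than in every sh_control library. The mean in OE_IFI6 was 2.11 times that in OE_control (log2 difference 1.05), and the mean in sh_control was 2.23 times that in OE_control (log2 difference of OE_control -1.13). Between sh_IFI6 and sh_control the log2 difference was -0.09, and all 3 sh_IFI6 libraries were lower, as for 9.61% of tested genes. Between OE_IFI6 and sh_control it was -0.08, again with every OE_IFI6 library lower, as for 6.54% of tested genes; with median-of-ratios scaling the difference was -0.03. The OE_control libraries thus differed from both the overexpressing cells and the other control, although their IFI6 level overlapped that of sh_control (log2 difference 0.05, limma, adjusted p = 0.89). The stress list above moved opposite to CUL4A, being highest in OE_control, and its part in the result was not tested.

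The transcripts of CUL4A divided along the same line. CUL4A-203 was at 41.5, 40.5 and 34.5 FPKM in OE_IFI6, at 37.1, 37.1 and 36.0 in sh_IFI6 and at 41.3, 37.4 and 42.4 in sh_control. In OE_control it was at 0.236, 0.141 and 0.163 FPKM. CUL4A-202 did the reverse, with 10.5, 14.2 and 11.8 FPKM in OE_control against 0.108 to 0.305 in OE_IFI6, 0.250 to 1.36 in sh_IFI6 and 0.223 to 0.550 in sh_control. In each of these transcripts the OE_control libraries did not overlap any other library; these transcripts were chosen for it. Of all 28221 tested transcripts, 9.2% were higher and 8.34% lower in every OE_IFI6 than in every OE_control library, and 8.06% were higher and 12.2% lower in every OE_control than in every sh_control library. The mean of CUL4A-203 was 215 times higher in OE_IFI6 than in OE_control, and that of CUL4A-202 was 58.6 times higher in OE_control than in OE_IFI6; both ratios rest on values below 1 FPKM in the lower group.

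As shares of the gene's FPKM, CUL4A-203 made up 76.0% ± 5.16 (SD, n = 3) in OE_IFI6, 72.7% ± 0.584 (n = 3) in sh_IFI6 and 74.8% ± 3.59 (n = 3) in sh_control, but 0.754% ± 0.251 (n = 3) in OE_control. CUL4A-202 made up 50.1% ± 4.56 (SD, n = 3) in OE_control and 0.411% to 1.29% on average in the other groups. The short CUL4A-209 kept a similar level, with group means of 6.20 to 7.70 FPKM, and its share was 30.3% ± 3.40 in OE_control against 12.2% to 15.2% elsewhere. TCONS_00108062, an assembled transcript not in GENCODE release 29, was at 2.31 to 2.94 FPKM in all 12 libraries. Its bounds, 13:113177677-113209489, lie mostly over the neighbouring gene PCID2. CUL4A-208, a non-coding transcript, was at 0.176 to 0.491 FPKM in OE_control and at 0.417 to 1.37 in the other libraries. Of the remaining 8 transcripts, 5 were above 0 somewhere with a highest value of 2.09 FPKM, and 3 were listed at 0 in all libraries.

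**Figure D2:**
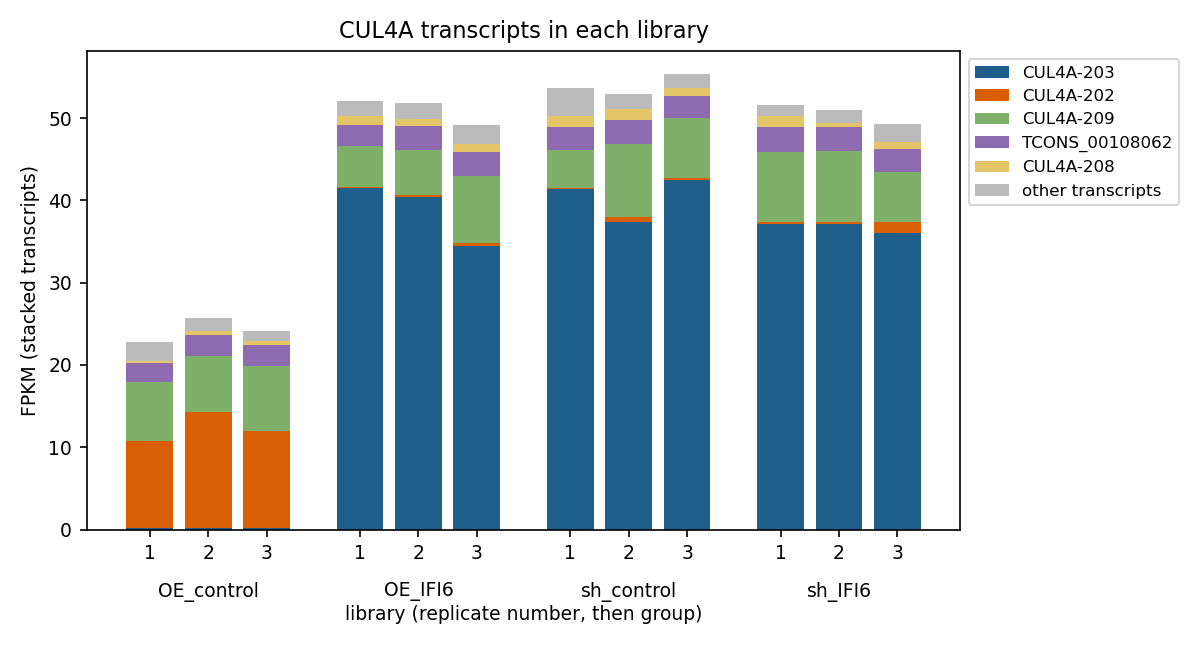
Level of each CUL4A transcript in FPKM, stacked to the gene's total, for each of the 12 libraries; numbers under the bars are replicate numbers within the group. CUL4A-203 fills most of the bar in 9 libraries and is at 0.141 to 0.236 FPKM in the 3 OE_control libraries, where CUL4A-202 is at 10.5 to 14.2 FPKM and the whole bar is lower.

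Nearly the whole gene-level gap between OE_IFI6 and OE_control lay in this pair. Summed, CUL4A-203 and CUL4A-202 came to 39.0 ± 3.71 FPKM (SD, n = 3) in OE_IFI6 and to 12.4 ± 1.79 (n = 3) in OE_control. The rest of the gene came to 12.0 ± 2.11 and 11.8 ± 0.390 FPKM (n = 3 each). In sh_control the pair came to 40.7 ± 2.50 and the rest to 13.2 ± 1.53 FPKM (n = 3), so there the rest was also somewhat higher on average. FPKM divides by transcript length, so the size of the gap depends on the length used. The deposited bounds of CUL4A-202 reach beyond those of GENCODE release 29 and would give it 5821 bases rather than 2364, while CUL4A-203 has 4037. Multiplied back by length, a quantity proportional to fragments, the OE_control level was 48.7% of that in OE_IFI6 with the deposited bounds and 23.7% with the GENCODE lengths, against 47.4% in FPKM. TCONS_00108062 had no length to use, so the 48.7% and 23.7% leave it out while the 47.4% counts it. CUL4A was lower in OE_control under each measure.

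The annotation limits what these values can separate. CUL4A-202 and CUL4A-203 differ only in their first and last exons, so fragments from the 18 shared exons do not tell them apart, and the sources used here do not give the settings of the authors' assignment. The first exon of CUL4A-203 also lies over 9 exons from 10 transcripts of PCID2, a gene on the opposite strand, which share 9 to 415 bases with it. Whether the counting used strand is not given either, so reads of CUL4A-203 and PCID2 in that exon may not be told apart. PCID2 (13:113177539-113208715) was at 38.3, 53.0 and 41.9 FPKM in OE_control and at 41.0, 53.1 and 54.6 in OE_IFI6, overlapping groups with a log2 difference of 0.16 (SE 0.15, limma, adjusted p = 0.59).

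The change of transcripts was set beside that of all other genes. CUL4A was chosen for this change, so its place among them is a description and not a test. For each gene with 2 or more transcripts, the reassigned share is the percentage of its FPKM that would have to move between transcripts to turn one library's division into another's. For CUL4A the median over OE_IFI6 and OE_control pairs was 79.0%, against a median of 20.7% and a 95th percentile of 63.9% over 10400 genes, and 148 genes were at or above it. Within groups the CUL4A median was 6.90% and the highest pair 12.1%, against a median of 19.6% for all genes. Between sh_IFI6 and sh_control it was 6.07%. Every pair between the groups exceeded every pair within them for CUL4A in the comparisons with OE_control, as did 1.21% of genes against OE_IFI6 and 1.39% against sh_control. In sh_IFI6 against sh_control and OE_IFI6 against sh_control 0.673% and 0.635% of genes did so. In 6 of the 10400 genes (0.0577%) all 3 OE_control libraries had 1 leading transcript and the other 9 libraries another, and CUL4A was among them because it was chosen for this. The other 5 were CINP, TLL1, NUDT5, HEY1 and PPP1R10. Their median reassigned shares between OE_IFI6 and OE_control were 73.0%, 56.6%, 55.4%, 35.3% and 14.4%. Their highest pairs within groups were 51.8%, 43.2%, 57.9%, 38.5% and 11.5%, above that median for NUDT5 and HEY1. These 5 genes were named after their values were seen.

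Of 15 protein-coding genes within 500 kb, 9 passed the filter of a mean of at least 1 FPKM. Of these 9, 1 was called in each comparison with OE_control. Over all tested genes, 7.66% were called in OE_IFI6 against OE_control and 7.52% in OE_control against sh_control. LAMP1, a lysosomal membrane protein, fell after IFI6 overexpression, with 64.6, 73.2 and 91.5 FPKM in OE_IFI6 against 120, 129 and 119 in OE_control (log2 difference -0.69, SE 0.14, limma, adjusted p = 0.013). In sh_IFI6 LAMP1 was at 99.8, 115 and 84.2 FPKM and in sh_control at 93.7, 107 and 97.9. Its fall against OE_control is opposite in direction to CUL4A. MCF2L, a guanine nucleotide exchange factor, was at 2.24, 2.40 and 1.82 FPKM in OE_control and at 0.876, 1.45 and 0.895 in sh_control, and it rose by 0.61 (SE 0.16, limma, adjusted p = 0.038). That call ended without any one of 6 libraries, with an adjusted p of 0.105, 0.0889 and 0.0524 without OE_control 1, 2 and 3, 0.121 and 0.127 without sh_control 1 and 3, and 0.0502 without sh_IFI6 1. In fits of the 2 groups alone the calls for LAMP1 and MCF2L ended (adjusted p = 0.078 and 0.067). TFDP1, the partner of E2F transcription factors, had its lowest group mean in OE_control, as CUL4A did. It was at 44.4, 46.5 and 45.8 FPKM there, at 64.3, 55.4 and 60.04 in OE_IFI6, at 65.3, 57.04 and 55.2 in sh_IFI6 and at 64.6, 63.6 and 43.8 in sh_control. Every OE_IFI6 library was above every OE_control library, as for 13.5% of tested genes. The log2 difference of 0.38 did not pass (SE 0.14, limma, adjusted p = 0.13), and sh_control 3 lay below OE_control. ADPRHL1, ATP11A, DCUN1D2, GRTP1, PCID2 and TMCO3 did not pass in either comparison.

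Among the partners of CUL4A, DDB1 was by far the most abundant. DDB1, the adaptor, ranged from 182 to 265 FPKM over the 12 libraries with a mean of 212. RBX1, the RING subunit, ranged from 40.1 to 51.4 with a mean of 45.5, and CUL4A had a mean of 44.9. CUL1 followed at 24.9, CUL4B at 23.2, CUL2 at 15.5, CUL3 at 9.19, CUL7 at 7.83, CUL5 at 5.53 and CUL9 at 3.60 FPKM. Neighbours in this order overlapped over the libraries except DDB1 with RBX1 and CUL2 with CUL3. CUL4A and CUL5 had the widest relative spread, with coefficients of variation of 28.1% each, and RBX1 had the narrowest at 8.498%.

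None of the 9 genes tested passed in any comparison. In OE_IFI6 against OE_control limma called 0 of 9 at an adjusted p under 0.05 where 7.66% of all 10925 tested genes were called, and 1 of 9 was under an unadjusted p of 0.05. In sh_IFI6 against sh_control it called 0 of 9 (background 0.0%), with 1 under an unadjusted p of 0.05. In OE_control against sh_control it called 0 of 9 (background 7.52%), with 2 under an unadjusted p of 0.05. In OE_IFI6 against sh_control it called 0 of 9 (background 0.0183%), with 0 under an unadjusted p of 0.05. The median log2 difference of the 9 was 0.12, -0.03, -0.19 and 0.02 in these comparisons, against 0.05, 0.00, -0.09 and -0.04 over all tested genes. OE_IFI6, OE_control and sh_control each enter several of these comparisons, which are therefore not independent. In OE_IFI6 against OE_control all 9 overlapped between the groups, where 13.5% of tested genes were higher and 9.78% lower in every OE_IFI6 library. With 3 libraries a group, a gene that missed the threshold is not shown to be unchanged.

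**Figure D3:**
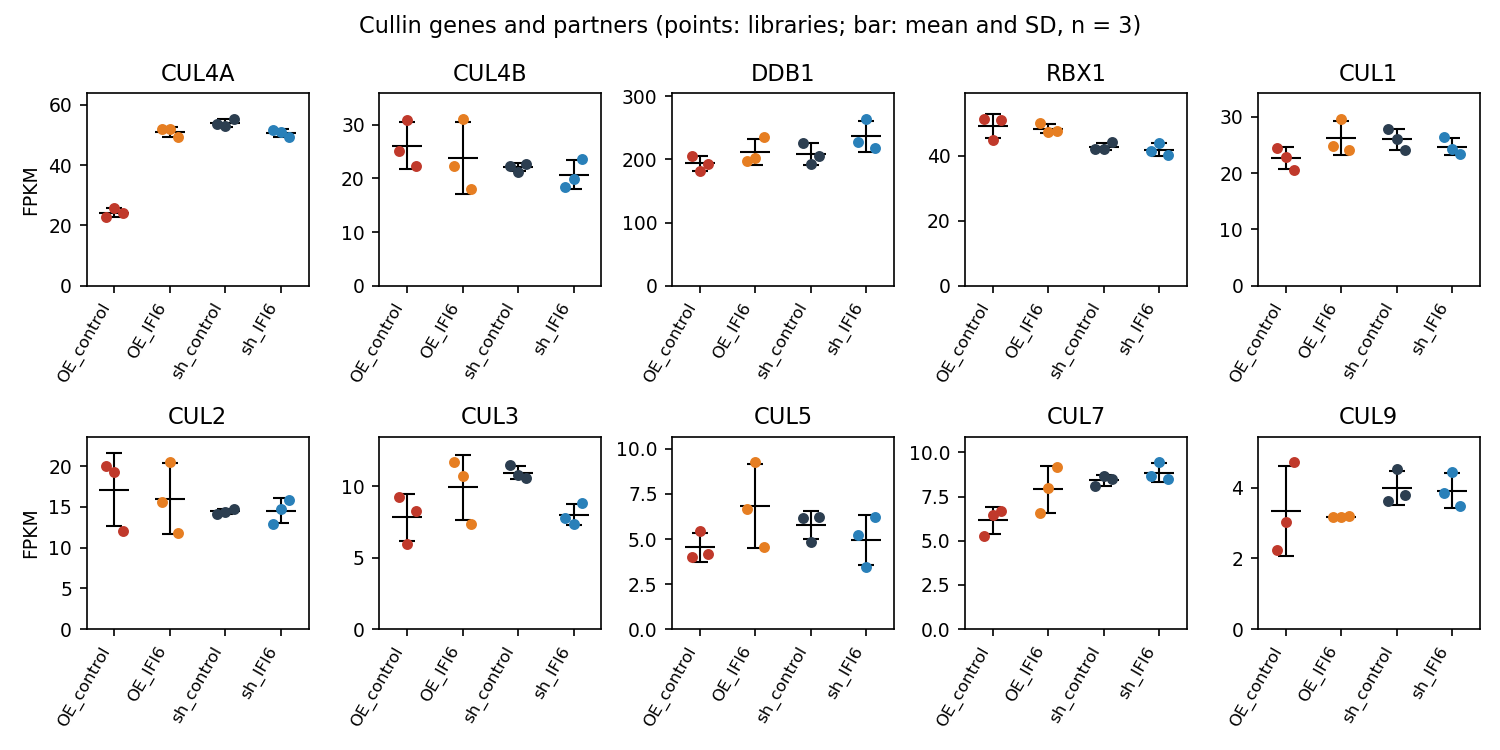
FPKM of CUL4A and the 9 related genes in each library (points), with the mean and SD of each group of 3 (bars); each panel has its own axis from 0. CUL4A lies at 22.8 to 25.7 FPKM in OE_control and at 49.2 to 55.4 in the other groups, while no other gene shows groups that far apart.

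CUL4B, the X-linked paralogue that builds the same kind of ligase, did not mirror CUL4A. It was at 25.1, 30.9 and 22.3 FPKM in OE_control and at 22.4, 31.2 and 17.97 in OE_IFI6, with a log2 difference of -0.15 (SE 0.18). In sh_IFI6 it was at 18.4, 19.99 and 23.7 and in sh_control at 22.2, 21.3 and 22.8 FPKM. The groups overlapped, and replicate 2 was the highest library in both OE_control and OE_IFI6.

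DDB1 was at 206, 182 and 193 FPKM in OE_control and at 197, 201.7 and 235 in OE_IFI6 (log2 difference 0.12, SE 0.11). In sh_IFI6 it was at 228, 265 and 218 and in sh_control at 226, 193 and 205 FPKM. These ranges overlapped in every comparison. RBX1 was at 51.4, 44.9 and 50.9 FPKM in OE_control and at 49.99, 47.4 and 47.5 in OE_IFI6. It was at 41.6, 43.9 and 40.1 in sh_IFI6 and at 42.2, 42.0 and 44.1 in sh_control. All OE_control and OE_IFI6 libraries therefore lay above all sh_control libraries, by a log2 difference of 0.19 and 0.17 (SE 0.09 each; limma, adjusted p = 0.22 and 0.9995). Genes higher in every library made up 10.1% and 3.0% of those tested in these comparisons.

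CUL3, which pairs with BTB-domain adaptors, was lower in all sh_IFI6 libraries than in any sh_control library. It was at 7.81, 7.39 and 8.82 FPKM against 11.5, 10.8 and 10.6, a log2 difference of -0.41 (SE 0.18, limma, adjusted p = 0.82), and 9.61% of tested genes were lower and 9.46% higher in all sh_IFI6 libraries. In OE_control it was at 9.23, 5.99 and 8.28 FPKM, also below sh_control in every library (log2 difference -0.46, SE 0.18, adjusted p = 0.14, limma). In OE_IFI6 it was at 11.7, 10.8 and 7.34. The overexpression and interference effects on CUL3 differed by 0.71 (SE 0.25, limma, adjusted p = 0.15). Without OE_IFI6 replicate 3 the difference was 0.90 and passed (adjusted p = 0.042, limma).

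CUL7, the scaffold of a ligase with the F-box protein FBXW8, showed the smallest p of the 9 genes. It was at 5.27, 6.49 and 6.71 FPKM in OE_control against 8.09, 8.66 and 8.48 in sh_control, a log2 difference of -0.40 (SE 0.13, limma, adjusted p = 0.085). CUL3 and CUL7 were the 2 of 9 that were lower in every OE_control library, where 20.3% of tested genes were. In OE_IFI6, CUL7 was at 6.55, 8.01 and 9.15 FPKM and overlapped OE_control (log2 difference 0.31, SE 0.13, limma, adjusted p = 0.18). In sh_IFI6 it was at 8.64, 9.45 and 8.48.

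CUL1, CUL2, CUL5 and CUL9 overlapped between the groups in the comparisons of each IFI6 vector with its own control. CUL1, the scaffold for F-box receptors, stayed between 20.6 and 29.7 FPKM in all 12 libraries. CUL2, which works with elongins and VHL, ranged from 11.9 to 20.5 FPKM, and both extremes were OE_IFI6 libraries. CUL5, the partner of SOCS-box receptors, ranged from 3.47 to 9.27, with a log2 difference of 0.47 (SE 0.23) after overexpression (limma, adjusted p = 0.25). CUL9, a large relative of CUL7, ranged from 2.24 to 4.72 FPKM. It was at 3.16, 3.17 and 3.20 in OE_IFI6 and at 3.62, 4.52 and 3.79 in sh_control, lower in every library (log2 difference -0.25, SE 0.18, limma, adjusted p = 0.9995), as were 6.54% of tested genes.

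Transcripts of the 9 genes gave no call either. Of their transcripts, 33 reached a mean of 1 FPKM, and limma called 0 of 33 in each comparison, with 1, 1, 2 and 0 under an unadjusted p of 0.05. The background over 28221 transcripts was 1.16% in OE_IFI6 against OE_control, 0.0283% in sh_IFI6 against sh_control, 1.03% in OE_control against sh_control and 0.0532% in OE_IFI6 against sh_control. CUL4B-202, CUL5-201, DDB1-201 and RBX1-201 each led their gene in all 12 libraries, as did some transcript in 39.9% of the 10400 genes. Their shares were 74.1% to 86.3%, 60.1% to 89.8%, 46.5% to 62.5% and 76.9% to 95.2%. CUL3-216 led in 11 libraries, CUL7-201 in 10, CUL9-218 in 7 and CUL2-204 in 6.

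CUL1 shows how far single libraries can differ in the deposited transcript values. CUL1-201 led in 8 libraries with 58.2% to 97.8% of the gene's FPKM. In OE_control 1 the leader was CUL1-203 at 22.7 FPKM, in OE_control 3 CUL1-211 at 18.9, in OE_IFI6 2 CUL1-217 at 17.0 and in sh_IFI6 1 CUL1-215 at 23.8. Each of these 4 was listed at 0 in most libraries, so 3 libraries of 1 group held different leaders while the gene total barely moved. The deposited starts of the 5 transcripts, on chromosome 7, lie within 835 bases of each other, and CUL1-201 and CUL1-203 share all 21 coding exons and 2328 coding bases. The median reassigned share within groups was 73.3% for CUL1, with a highest pair of 94.3%, against 6.90% and 12.1% for CUL4A. For CUL4A the same transcript led in all 3 libraries of each group, though shares varied: CUL4A-203 held 79.8%, 78.1% and 70.1% in OE_IFI6.

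**Figure D4:**
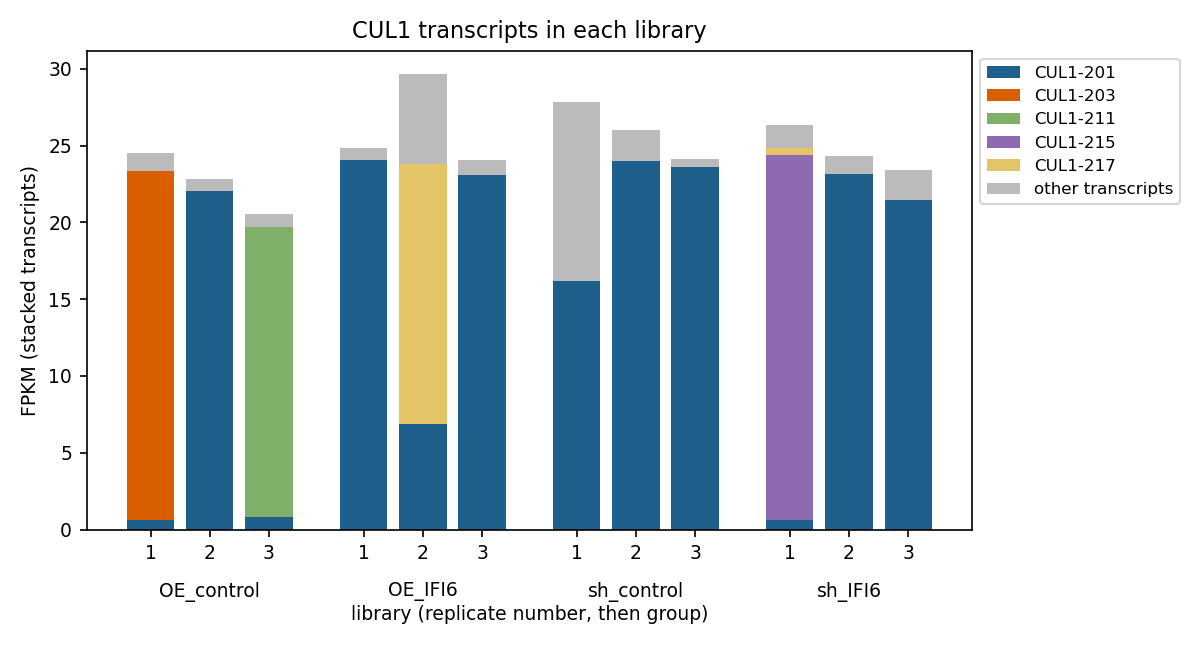
Level of each CUL1 transcript in FPKM, stacked to the gene's total, for each of the 12 libraries. The total stays at 20.6 to 29.7 FPKM, while the leading transcript is CUL1-201 in 8 libraries and a different one in each of OE_control 1, OE_control 3, OE_IFI6 2 and sh_IFI6 1.

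The wider cullin-RING system was read from 7 lists of receptors, adaptors, E2 and NEDD8 enzymes and known substrates, 204 genes of which 188 passed the filter. After IFI6 overexpression 4 rose and 3 fell against OE_control, which is 3.72% against 7.66% of all genes, 4.1% higher and 3.56% lower. In OE_control against sh_control 1 rose and 8 fell, 4.79% against 7.52% of all genes, 2.75% higher and 4.78% lower. In sh_IFI6 against sh_control and in OE_IFI6 against sh_control limma called 0 of 188. The median log2 difference over the lists was 0.05 in OE_IFI6 against OE_control and -0.09 in OE_control against sh_control, as over all genes (0.05 and -0.09). Few genes of the system were called, and the lists together lay at the median of all genes.

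**Figure D5:**
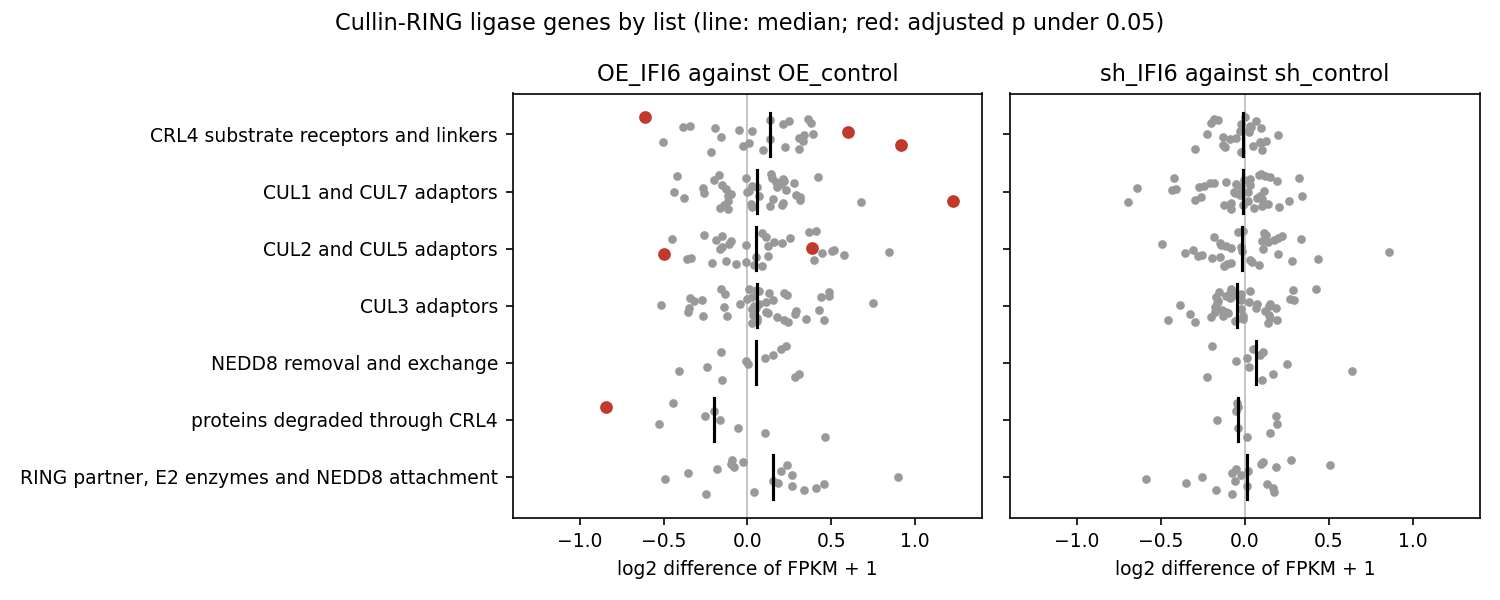
Log2 difference of FPKM + 1 for the 188 genes of the 7 cullin-RING lists in the comparison of each IFI6 vector with its own control; points are genes, black lines are list medians and red points passed at an adjusted p under 0.05. In the left panel 7 genes passed, 4 higher and 3 lower, and in the right panel 0 did.

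Of 26 tested CRL4 receptors and linkers, 2 rose and 1 fell after IFI6 overexpression, which is 11.5% against 7.66% of all genes. DCAF16, a substrate receptor, was at 9.88, 11.3 and 10.5 FPKM in OE_IFI6 against 6.25, 7.64 and 6.14 in OE_control and rose by 0.60 (SE 0.11, limma, adjusted p = 0.0079). It fell by 0.61 in OE_control against sh_control (SE 0.11, limma, adjusted p = 0.0075). Its OE_control libraries lay below the other 9. Of tested genes, 13.5% were lower in every OE_control than in every OE_IFI6 library and 20.3% lower than in every sh_control library. AMBRA1, a receptor known for its part in autophagy and cyclin D turnover, was at 11.5, 8.71 and 10.4 FPKM in OE_IFI6 against 14.9, 17.3 and 15.9 in OE_control and fell by 0.61 (SE 0.12, limma, adjusted p = 0.012). In sh_IFI6 AMBRA1 was at 14.1, 11.8 and 11.5 FPKM and in sh_control at 12.2, 12.7 and 12.3. In fits of the 2 groups alone the calls for DCAF16, AMBRA1 and DET1 after overexpression ended (adjusted p = 0.11, 0.11 and 0.16, limma). DET1, which links to the ligase COP1, was at 1.75, 1.35 and 1.52 FPKM in OE_IFI6 against 1.21, 0.0665 and 0.0371 in OE_control, so 2 of the OE_control libraries were far below the other one. It rose by 0.91 after overexpression (SE 0.23, limma, adjusted p = 0.035) and fell by 0.91 in OE_control against sh_control (SE 0.23, limma, adjusted p = 0.037). Its call after overexpression ended without OE_control 2 or 3, any OE_IFI6 library, sh_control 2 or any sh_IFI6 library, with an adjusted p of 0.0516 to 0.117. Its call against sh_control ended without OE_control 2 or 3 or any sh_control or sh_IFI6 library, with an adjusted p of 0.05199 to 0.114. The DET1 call after overexpression also ended with quantile normalization (adjusted p = 0.071) and with no filter (0.060). That against sh_control ended with median-of-ratios scaling (0.056), quantile normalization (0.10), no filter (0.061) and the 2 groups alone (0.12).

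CDKN1B (p27), a cell-cycle inhibitor degraded through cullin ligases, showed the clearest change of the substrates. It was at 81.2, 82.4 and 79.996 FPKM in OE_control, at 40.6, 50.04 and 44.4 in OE_IFI6, at 48.3, 50.7 and 51.6 in sh_IFI6 and at 53.3, 52.5 and 49.4 in sh_control. The OE_control libraries lay above all 9 others; 9.78% of tested genes were higher in every OE_control than in every OE_IFI6 library, and 10.1% higher than in every sh_control library. It fell by 0.84 after overexpression (SE 0.10, limma, adjusted p = 0.00040) and rose by 0.64 in OE_control against sh_control (SE 0.10, limma, adjusted p = 0.0026). These are RNA levels and say nothing of protein turnover. XPC, a DNA damage sensor, was at 1.43, 2.36 and 2.44 FPKM in OE_control against 4.18, 4.03 and 6.05 in sh_control and fell by 0.90 (SE 0.21, limma, adjusted p = 0.027). The XPC call ended without OE_control 1 (adjusted p = 0.0968) or without sh_control 1, 2 or 3 (0.0567, 0.0573 and 0.103), and was just lost with no filter and with the 2 groups alone (0.0502 and 0.0508).

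FBXO9, an F-box receptor of CUL1 ligases, rose most among the lists after overexpression. It was at 32.7, 34.0 and 33.5 FPKM in OE_IFI6, at 11.8, 18.9 and 11.5 in OE_control, at 31.2, 21.3 and 19.5 in sh_IFI6 and at 20.5, 19.6 and 18.3 in sh_control. The log2 difference from OE_control was 1.23 (SE 0.19, limma, adjusted p = 0.0031). FBXO45, another F-box protein, was at 6.21, 7.03 and 7.61 FPKM in OE_control against 11.4, 9.79 and 12.1 in sh_control and fell by 0.60 (SE 0.13, limma, adjusted p = 0.020). Its call ended without OE_control 1, sh_control 1 or sh_control 3 (adjusted p = 0.0678, 0.0692 and 0.0831), with quantile normalization (0.062) and with the 2 groups alone (0.051).

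In the CUL2 and CUL5 list SOCS3, a SOCS-box inhibitor of cytokine signalling, was at 14.4, 16.1 and 20.3 FPKM in OE_IFI6 against 24.9, 23.3 and 23.9 in OE_control. It fell by 0.50 (SE 0.12, limma, adjusted p = 0.029). In sh_IFI6 SOCS3 was at 20.1, 21.5 and 21.6 FPKM and in sh_control at 18.2, 19.4 and 17.2. LRR1, a CUL2 receptor that acts on the replication machinery, was at 15.5, 16.3 and 14.6 FPKM against 12.0, 12.0 and 10.8 and rose by 0.39 (SE 0.10, limma, adjusted p = 0.037). Both calls ended without single libraries. The adjusted p of SOCS3 was 0.075, 0.0517 and 0.0744 without OE_control 1, 2 and 3 and 0.0921 and 0.0838 without OE_IFI6 1 and 2. That of LRR1 was 0.051 to 0.115 without any library but OE_IFI6 3, 0.053 under median-of-ratios scaling and 0.057 under quantile normalization. With the 2 groups alone the adjusted p was 0.18 for SOCS3 and 0.22 for LRR1.

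The remaining calls were in OE_control against sh_control, where 4 genes passed beside those given above. KLHL11, a CUL3 adaptor, was at 3.97, 3.72 and 4.60 FPKM in OE_control against 8.98, 9.02 and 8.90 in sh_control and fell by 0.97 (SE 0.21, limma, adjusted p = 0.018). ASB1 and PCMTD2, SOCS-box proteins of CUL5 ligases, fell by 0.61 and 0.68, from 2.95 to 1.57 and from 5.08 to 2.87 FPKM (limma, adjusted p = 0.018 and 0.048). UBE2G1, an E2 enzyme that works with CRL4, fell by 0.43, from 24.0 to 17.5 FPKM (limma, adjusted p = 0.023). Each of these calls ended without some library. The adjusted p of KLHL11 was 0.0546 without OE_control 1 and 0.0552, 0.0628 and 0.0553 without sh_control 1, 2 and 3. ASB1 reached 0.0621 without OE_control 1, 0.0685 without sh_control 2 and 0.0766 without sh_control 3. UBE2G1 reached 0.0501 and 0.0622 without OE_control 2 and 3 and 0.0841 and 0.103 without sh_control 1 and 2. PCMTD2 reached 0.0582 to 0.149 without OE_control 1 or 3, OE_IFI6 1, or any sh_control or sh_IFI6 library. With median-of-ratios scaling the adjusted p was 0.063 for both UBE2G1 and PCMTD2. PCMTD2 was also lost with quantile normalization (0.096), no filter (0.078) and the table of all annotated genes (0.052). With the 2 groups alone ASB1, PCMTD2 and UBE2G1 were lost (0.076, 0.082 and 0.086).

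Of the 188 genes, CDKN1B alone passed the test of the difference between the overexpression and interference effects, where 2.69% of all genes passed. The other calls after overexpression are therefore not shown to differ from the effect of interference.

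Over the 12 libraries the 5 tested genes whose log2 levels followed CUL4A most closely were TBC1D13, ZXDB, MYLK3, MAPKAPK2 and GAS1, with Pearson r of 0.983 to 0.985. Each was low in OE_control: MAPKAPK2 was at 17.7 FPKM on average there and at 46.9 to 51.5 in the other groups, and ZXDB was at 13.3 against 25.3 to 27.97. For the transcript CUL4A-203 the closest were ZNF749-201, GAS1-201, ALDH5A1-202, MAPKAPK2-202 and B4GALT1-201 (r of 0.986 to 0.993). For CUL4A-202 they were SLC20A1-202, DNAJB1-201, DUSP5-201, GDF15-201 and NT5E-201 (r of 0.977 to 0.989), among them the heat shock co-chaperone DNAJB1 at 266 FPKM in OE_control and 26.2 to 28.4 elsewhere. These correlations are set by 3 libraries that lie apart from 9, were picked as the highest of all tested, and describe the libraries only.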

How the data were processed

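RNA of 12 TE-1 libraries (4 groups of 3) was read from tables of FPKM values deposited by the authors. Per the submitters' processing notes, HISAT2, StringTie, Cuffdiff and edgeR were used; the sources used here do not give the genome build, annotation release, strand setting or versions. Deposited gene values equal the sum of their transcripts within 6.8e-05 FPKM for the 10 genes. Bounds of 10 of 10 genes overlap GENCODE release 29 (GRCh38), 6 exactly, and 99 of 122 of their transcripts have the same bounds. No 2 of the 66 library pairs were identical.

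Levels were compared as log2(FPKM + 1) in the 10925 of 19771 genes whose mean over the libraries reached 1 FPKM and transcripts likewise (28221), with limma 3.58.1 in R 4.3.3: 1 model with 4 group means, a trended prior and Benjamini-Hochberg adjustment over all tested features, at 0.05. A fold on this scale understates the change of low genes. The script was tested on simulated data. Shares, exon structures and windows were computed in Python 3.11.15.

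FPKM keep no counts, so depth per value is unknown. Low values of 14990 genes with 1 transcript step by amounts that would put library depths within 1.29 times of each other, but 34.3% to 38.7% were within 1% of whole steps, so no count test was run.

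The genes and lists were chosen with earlier results of these data known. Named were all 10 genes, CUL4A transcripts with a group mean of at least 1 FPKM, the highest transcript of each other gene, up to 4 passing genes of smallest p per list and comparison, genes within 500 kb of CUL4A and the 5 most alike. Replicate numbers were not used to pair the libraries in the main model. Alternatives were other pseudocounts, filters, scalings, priors, tables and libraries left out.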

Additional observations from a re-analysis of the deposited data

Results flagged for a closer look

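CUL4A, KLHL11 and SOCS3 each had libraries that did not overlap in either comparison of a vector with its own control, with opposite signs. Such separation is common: 13.5% and 9.78% of tested genes were higher and lower in every OE_IFI6 library, and 9.46% and 9.61% in every sh_IFI6 library. The share of all tested genes that did so in both comparisons with opposite signs is not given here, so no excess over it is shown. For CUL4A every OE_IFI6 library was above every OE_control library (log2 difference 1.05) and every sh_IFI6 library was below every sh_control library (-0.09), which leaves a difference of 1.14 on the log2 scale that was not tested. KLHL11 had log2 differences of 0.75 and -0.17, a difference of 0.91 that did not pass (limma, adjusted p = 0.13). It was at 4.611, 10.7 and 8.44 FPKM in OE_IFI6, the lowest barely above OE_control 3 at 4.603. SOCS3 had -0.50 and 0.20, a difference of -0.69 that did not pass either (limma, adjusted p = 0.057). CDKN1B differed between the vectors by -0.80 (SE 0.14, limma, adjusted p = 0.011), with -0.84 after overexpression, lower in 3 of 3 libraries, and -0.04 after interference.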

How the results depend on the processing

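Of 1632 alternative values for 87 results, 1497 stayed the same, 96 lost a call, 25 changed sign and 14 moved. For a tested gene, the same means an unchanged direction and side of the threshold. A count was the same if within a set ratio of the main count. CUL4A was the same if it kept its sign and shifted by less than its SD within groups. The count of called cullin genes and of their transcripts was 0 under every alternative, and CUL4A kept its direction in all (1.01 to 1.09 on the log2 scale after overexpression). Cullin-RING genes called numbered 2 rather than 7 after overexpression when only the 2 groups were fitted; in OE_control against sh_control they numbered 5 with a minimum of 5 FPKM, 4 with only the 2 groups and 3 to 13 rather than 9 without one library (3 without sh_control 1, 2 or 3). The difference of effects was called for 0 to 1 of the 9 genes. Over protein-coding transcripts alone, CUL4A-203 held 85.7%, 81.5% and 84.7% in OE_IFI6, sh_IFI6 and sh_control, and in OE_control CUL4A-202 held 61.7% and CUL4A-209 37.3%.

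Sign changes were all in uncalled log2 differences. Without one library the ranges were, after overexpression, -0.31 to 0.094 for CUL2, -0.35 to 0.030 for CUL4B, -0.20 to 0.21 for CUL9 and -0.081 to 0.015 for RBX1. After interference they were -0.064 to 0.079 for CUL2 and -0.094 to 0.058 for CUL9. In OE_IFI6 against sh_control they were -0.084 to 0.062 for CUL1, -0.079 to 0.29 for CUL2, -0.27 to 0.030 for CUL3, -0.13 to 0.25 for CUL4B, -0.040 to 0.40 for CUL5, -0.19 to 0.023 for CUL7 and -0.059 to 0.082 for DDB1. With a pseudocount of 0.1 CUL2 after interference was -3.5e-05, and with quantile normalization CUL9 after interference was 0.018 and DDB1 in OE_IFI6 against sh_control was -0.061.

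Of calls over all genes, 53.5% were higher after overexpression and 36.5% in OE_control against sh_control; with median-of-ratios scaling these were 45.2% and 57.3%, and with quantile normalization 43.9% and 53.4%. After the group mean of each gene was subtracted, log2 levels of same-numbered libraries correlated at -0.15 to 0.25. By this measure 8 of 12 libraries correlated best with their own number in another group, as a hint from the data. With a replicate block the counts were 0 for the cullin genes and 8 and 10 for the cullin-RING genes in the 2 comparisons, and LRR1, PCMTD2 and MCF2L lost their calls (adjusted p = 0.053, 0.055 and 0.064). Causes were not tested. Depth is unknown, so transcripts below 1 FPKM, such as CUL4A-203 in OE_control, have no counting interval.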
